A study of Homo sapiens with 16 samples.

Results

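The mRNAs of the 7 histone H3 lysine 4 methyltransferases of the KMT2 and SETD1 families, KMT2A, KMT2B, KMT2C, KMT2D, KMT2E, SETD1A and SETD1B, were followed in RNA pulled down with ALKBH5 or with RBM33. They were taken by gene name from both of the authors' deposited tables, where all 7 were found among 16324 listed genes. The series used RNA immunoprecipitation with sequencing (RIP-seq) on cells with the label UM-SCC-1, a head and neck squamous cell carcinoma line. Each stable line expressed a Strep-tagged bait from a puromycin-selected lentivirus: ALKBH5, which demethylates m6A in RNA, or RBM33, an RNA-binding protein, and a Strep vector (Vec) line was the control. StrepTactin-XT pull-down libraries numbered 3 for ALKBH5, 2 for RBM33 and 3 for Vec, each set with as many input libraries, 16 libraries in all. Both file names carry the label siCtrl, a treatment that none of the 16 sample labels names, and the labels do not say whether replicates were separate cultures.

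Methylation of histone H3 at lysine 4 marks promoters and enhancers of active genes. In mammals it is laid down by large complexes, called COMPASS after the yeast complex, in which a catalytic SET domain protein works with the shared subunits WDR5, RBBP5, ASH2L and DPY30. SETD1A and SETD1B make most of the trimethyl mark at promoters, KMT2A and KMT2B act at developmental and CpG-rich genes, and KMT2C and KMT2D place the monomethyl mark at enhancers. KMT2C and KMT2D are often mutated in squamous carcinomas. KMT2E is the distant relative, with a divergent SET domain for which no robust histone methyltransferase activity is established.

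Each of the authors' deposited tables, 1 for ALKBH5 and 1 for RBM33, lists per gene a log2 fold change, the average abundance as log2 CPM (read counts scaled to library size), an F statistic, a p-value and a p-value adjusted over all genes. They hold no value per library, so depth is unknown and no standard deviation or n can be given. Neither the groups compared nor the direction of the ratio is stated, and values are called positive or negative as the tables print them. Whether the Vec libraries entered the fits is not stated either, so binding to the beads alone cannot be told apart here from binding to the bait. An approximate standard error (SE) was taken as the size of the log2 fold change divided by the square root of F, and a 95% interval from it and the degrees of freedom that F and p imply. Of 10 squamous keratinocyte markers, 8 were not among the genes used here, KRT5, KRT14 and TP63 included, and ITGB4 had an average log2 CPM of 1.02 in the authors' deposited ALKBH5 table. Of 6 embryonic kidney line markers 4 were listed, with NEFL at an average log2 CPM of 8.10 and NEFM at 7.72 in the authors' deposited ALKBH5 table. The cells are therefore named only by their label.

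The 7 methyltransferase mRNAs were positive in both tables. At an adjusted p under 0.05 this was 7 of 7 in the authors' deposited ALKBH5 table, where 30.5% of all genes were called positive, and 7 of 7 in the RBM33 one, where 24.0% were. The 7 were chosen with earlier results of these data known, so all counts of them given here are description only. The share of all genes called positive in both was not computed, and whether the tables share libraries is not stated. The median log2 fold change of the 7 was 1.79 in the authors' deposited ALKBH5 table, against 0.03 over all genes. It was 2.02 in the authors' deposited RBM33 table, against -0.02 over all genes. With the threshold at 0.01 the count stayed at 7 in each, while 24.4% (ALKBH5) and 16.6% (RBM33) of all genes were called positive. With a minimum of 1 log2 unit it was 5 for ALKBH5 and 6 for RBM33, against 21.0% and 17.1% of all genes. With p-values adjusted over protein-coding genes only, or over genes of at least median abundance, the count was again 7 in each, against 27.6% and 29.7% of those genes for ALKBH5 and 21.6% and 25.2% for RBM33. KMT2D stood highest in both, and SETD1A and KMT2E were the lowest pair in both. The approximate SEs were small beside these values, from 0.11 to 0.16 for ALKBH5 and from 0.17 to 0.24 for RBM33.

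KMT2D (ENSG00000167548, chromosome 12, 49018978 to 49060794, minus strand, hg38) encodes the main enhancer monomethyltransferase. Its log2 fold change was 2.97 in the authors' deposited ALKBH5 table (SE 0.15, 95% interval 2.64 to 3.30, adjusted p = 1.23e-08). In the authors' deposited RBM33 table it was 3.27 (SE 0.23, interval 2.76 to 3.79, adjusted p = 3.67e-06). These are ratios of 7.82 and 9.68 on the linear scale. Among 13210 protein-coding genes KMT2D held rank 166 from the top in the authors' deposited ALKBH5 table and rank 45 in the RBM33 one. Its paralog KMT2C (ENSG00000055609, chromosome 7, 152134922 to 152436003, minus strand) was lower, at 1.79 for ALKBH5 (SE 0.13, interval 1.51 to 2.08) and 1.95 for RBM33 (SE 0.18, interval 1.54 to 2.36) in the authors' deposited tables. The intervals of KMT2D and KMT2C did not overlap in either table, and their difference was 1.17 in the ALKBH5 table and 1.32 in the RBM33 table on the log2 scale. Part of the KMT2C gene has near-identical copies elsewhere in the genome, so reads from that part may have been lost or shared, and its value is less certain than the others.

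KMT2B (ENSG00000272333, chromosome 19, 35717973 to 35738878, plus strand) and KMT2A (ENSG00000118058, chromosome 11, 118436490 to 118526832, plus strand) are the trithorax-type pair, which recruit the tumour suppressor menin. KMT2B had 2.38 in the authors' deposited ALKBH5 table (SE 0.14, interval 2.09 to 2.68, adjusted p = 2.46e-08). KMT2A had 1.56 there (SE 0.13, interval 1.27 to 1.85, adjusted p = 5.09e-07), so that the intervals of the pair stood apart in the authors' deposited ALKBH5 table. In the authors' deposited RBM33 table the pair lay close, KMT2B at 2.18 (SE 0.21, interval 1.72 to 2.64) and KMT2A at 2.02 (SE 0.20, interval 1.58 to 2.46). The order of the pair was the same in both, but only the ALKBH5 table separated them beyond their intervals.

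SETD1B (ENSG00000139718, chromosome 12, 121804009 to 121832656, plus strand) and SETD1A (ENSG00000099381, chromosome 16, 30957754 to 30984664, plus strand) are close relatives that share a domain architecture and most partners. Of the 3 paralog pairs they differed most. SETD1B had 1.99 for ALKBH5 (SE 0.16, interval 1.65 to 2.34, adjusted p = 3.07e-07) and 2.70 for RBM33 (SE 0.24, interval 2.18 to 3.22, adjusted p = 8.39e-06) in the authors' deposited tables. SETD1A had 0.53 for ALKBH5 (SE 0.12, interval 0.28 to 0.79, adjusted p = 0.00151) and 1.01 for RBM33 (SE 0.19, interval 0.59 to 1.43, adjusted p = 0.00107) in the authors' deposited tables. The difference between SETD1B and SETD1A was 1.46 in the ALKBH5 table and 1.69 in the RBM33 table on the log2 scale, with no overlap of intervals in either.

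KMT2E (ENSG00000005483, chromosome 7, 105014190 to 105115019, plus strand) had 0.61 in the authors' deposited ALKBH5 table (SE 0.11, interval 0.38 to 0.85, adjusted p = 0.000293). In the authors' deposited RBM33 table it had 0.72 (SE 0.17, interval 0.36 to 1.08, adjusted p = 0.00359), the largest adjusted p among the 7. Its intervals overlapped those of SETD1A in both tables. Only KMT2E and SETD1A stayed below 1 log2 unit for ALKBH5 and only KMT2E for RBM33, in the authors' deposited tables.

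**Figure D1:**
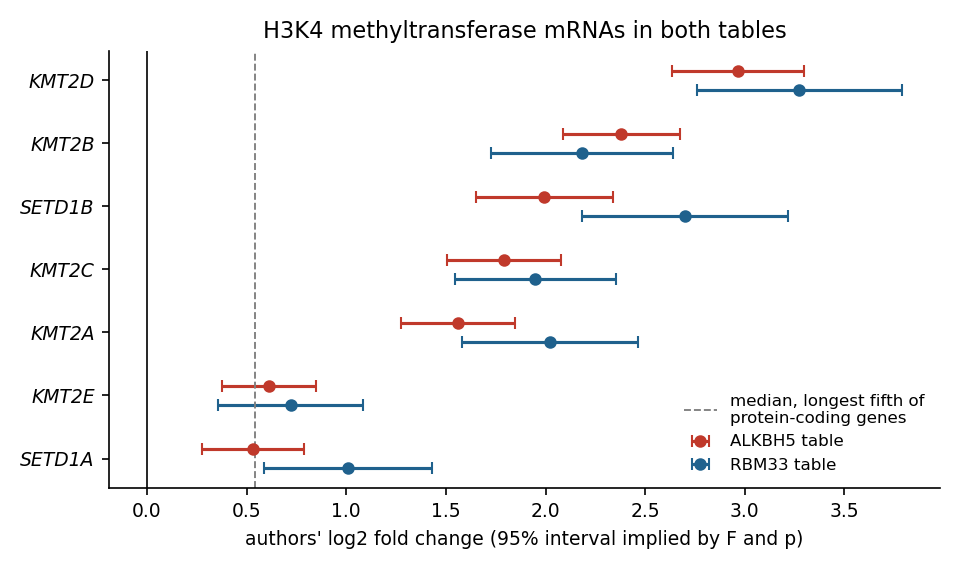
Log2 fold change of each methyltransferase mRNA (x axis, log2 units) in the authors' deposited tables for ALKBH5 (red) and RBM33 (blue). Points are the deposited values, bars are the 95% intervals implied by F and p, and the dashed line at 0.54 is the median of the protein-coding genes in the top 20% by listed length. KMT2D is highest in both, and KMT2E and SETD1A are lowest.

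Within each table the 7 mRNAs form 21 pairs. The intervals did not overlap for 15 pairs in the ALKBH5 table and for 13 in the RBM33 table. The share over pairs of all genes was not computed, so these counts only describe the spread within the 7. From high to low the order was KMT2D, KMT2B, SETD1B, KMT2C, KMT2A, KMT2E and SETD1A for ALKBH5, and KMT2D, SETD1B, KMT2B, KMT2A, KMT2C, SETD1A and KMT2E for RBM33. Among neighbours in these orders, only KMT2A over KMT2E for ALKBH5 (0.95 log2 units apart) and KMT2C over SETD1A for RBM33 (0.94 apart) had separate intervals. Between the tables, the intervals of each of the 7 overlapped. How many of all genes had intervals that overlapped in this way was not computed, so this describes the 7 only. ALKBH5 minus RBM33 was -0.71 for SETD1B, -0.48 for SETD1A, -0.46 for KMT2A, -0.31 for KMT2D, -0.16 for KMT2C and -0.11 for KMT2E. It was 0.20 for KMT2B, the exception with the higher value in the authors' deposited ALKBH5 table. These differences were not tested, since no values per library are at hand and whether the tables were normalized together or share libraries is not stated.

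Abundance followed another order than the fold changes. Per kilobase of listed gene length, SETD1A was the most abundant, with an average of 25.3 CPM per kb in the authors' deposited ALKBH5 table and 20.8 in the RBM33 one. KMT2D followed at 17.3 (ALKBH5) and 18.6 (RBM33) and KMT2C at 12.8 (ALKBH5) and 14.0 (RBM33) CPM per kb from the authors' deposited tables. KMT2B, KMT2E, SETD1B and KMT2A had 10.5, 9.64, 8.74 and 7.85 CPM per kb from the authors' deposited ALKBH5 table. The corresponding values in the authors' deposited RBM33 table were 9.91, 10.8, 10.0 and 10.3 CPM per kb. SETD1A, the most abundant per length, was thus the lowest of the 7 by fold change for ALKBH5 and next to lowest for RBM33. Without division by length KMT2D was the most abundant, at an average log2 CPM of 8.54 (ALKBH5) and 8.65 (RBM33) in the authors' deposited tables. SETD1A had 7.33 (ALKBH5) and 7.05 (RBM33) there. Which libraries these averages cover is not stated.

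The genes are long, and in these tables longer protein-coding genes tended to have more positive values. The listed length, which can exceed that of any single transcript, was 31279 bases for KMT2A, 21502 for KMT2D, 20112 for KMT2C, 10461 for KMT2B, 9949 for KMT2E, 8557 for SETD1B and 6372 for SETD1A. The 2643 protein-coding genes of at least 8650 bases, the top 20% by listed length, had a median log2 fold change of 0.54 in each of the authors' deposited tables, and the other 10567 had -0.24 for ALKBH5 and -0.30 for RBM33. Of those long genes 52.6% were called positive in the authors' deposited ALKBH5 table and 46.7% in the RBM33 one. Set among these long genes, KMT2D was at percentile 98.0, KMT2B at 95.0, SETD1B at 91.5, KMT2C at 88.8 and KMT2A at 84.1 in the authors' deposited ALKBH5 table. KMT2E at 53.2 and SETD1A at 49.6 lay at the middle of the long genes in the authors' deposited ALKBH5 table. For RBM33 the percentiles were 99.4 for KMT2D, 98.1 for SETD1B, 95.8 for KMT2B, 94.3 for KMT2A, 93.0 for KMT2C, 69.1 for SETD1A and 57.8 for KMT2E in the authors' deposited table. SETD1A and SETD1B are themselves shorter than 8650 bases. Among all protein-coding genes SETD1A was at percentile 70.3 for ALKBH5 and 84.3 for RBM33, and SETD1B at 95.2 and 98.9, from the authors' deposited tables for ALKBH5 and RBM33. The part of length in the values was not tested.

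**Figure D2:**
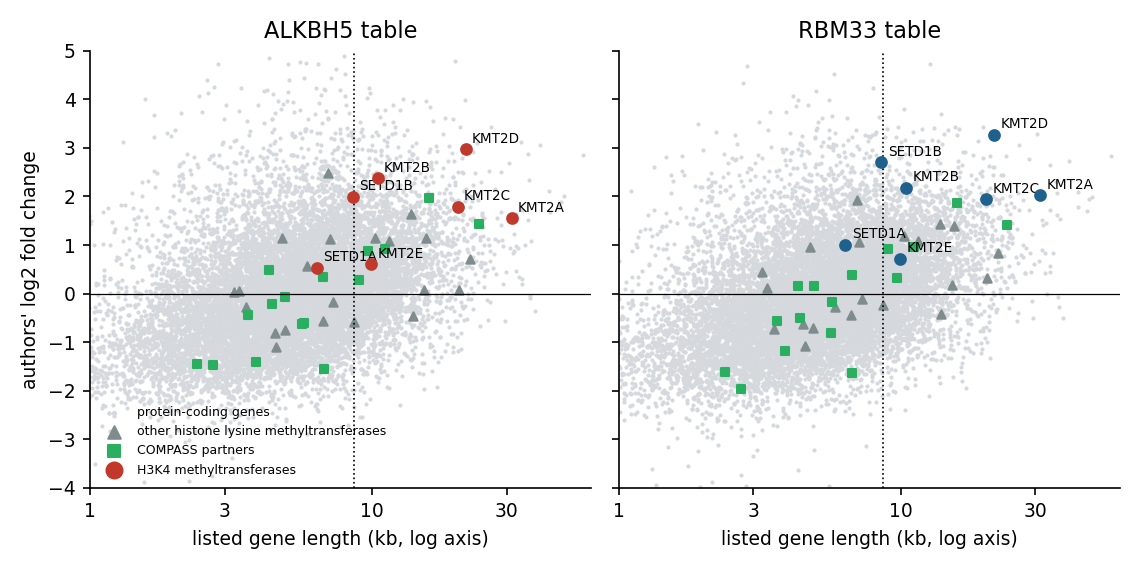
Log2 fold change (y axis) against listed gene length (x axis, kb, log scale) for protein-coding genes (grey), the methyltransferases (labelled circles), COMPASS partners (green squares) and other histone lysine methyltransferases (triangles), in the authors' deposited tables for ALKBH5 (left) and RBM33 (right). The dotted line marks 8650 bases, and genes beyond the axes (291 on the left and 293 on the right) are not drawn. KMT2D is the highest of the 7 labelled circles in both, and KMT2E and SETD1A are the lowest.

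The partners of these enzymes had calls of both signs. The authors' deposited ALKBH5 table had 4 of 16 COMPASS partner mRNAs positive and 7 negative, against 30.5% of all genes called positive and 29.1% called negative, and the median was -0.15. In the authors' deposited RBM33 table the counts were also 4 positive and 7 negative, against 24.0% of all genes called positive and 27.0% called negative, with a median of -0.01. The positive share of the partners was thus near that of all genes. With a minimum of 1 log2 unit 2 were positive and 4 negative in each table, against 16.2% of all genes negative for ALKBH5 and 16.7% for RBM33. Of the 16 partners, 3 were positive in both tables and 6 negative in both. The share of all genes called alike in both was not computed, and whether the tables share libraries is not stated. These counts are therefore description only.

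The shared subunits were on the negative side. DPY30, a small subunit that docks on ASH2L, had -1.46 for ALKBH5 (SE 0.19, adjusted p = 2.22e-05) and -1.96 for RBM33 (SE 0.23, adjusted p = 3.85e-05) in the authors' deposited tables. ASH2L, which binds and activates the SET domain, had -0.62 for ALKBH5 (adjusted p = 0.00226) and -0.81 for RBM33 (adjusted p = 0.00262) in the authors' deposited tables. WDR5, the scaffold that holds the catalytic protein, had -0.44 for ALKBH5 (adjusted p = 0.00517) and -0.56 for RBM33 (adjusted p = 0.00721) in the authors' deposited tables. RBBP5, the fourth of them, was called for RBM33 alone, at -0.51 (adjusted p = 0.0316), and had -0.22 for ALKBH5 (adjusted p = 0.142) in the authors' deposited tables. All 4 genes have a listed length of at most 5659 bases.

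Among the partners of single pairs, those of KMT2C and KMT2D and those of the SETD1 pair had calls of both signs in each table. The 4 partners of KMT2A and KMT2B had 0 positive and 1 negative for ALKBH5, and 1 positive and 1 negative for RBM33, in the authors' deposited tables. KDM6A, the H3 lysine 27 demethylase of the KMT2C and KMT2D complexes, had 1.43 for ALKBH5 and 1.40 for RBM33, and the coactivator NCOA6 of the same complexes 0.91 and 0.96, in the authors' deposited tables for ALKBH5 and RBM33. PAGR1, a small subunit of these complexes that binds PAXIP1, had -1.42 for ALKBH5 (adjusted p = 3.38e-05) and -1.19 for RBM33 (adjusted p = 0.000127) in the authors' deposited tables. BOD1L1, a large protein that works with SETD1A at stalled replication forks, had 1.98 for ALKBH5 (adjusted p = 1.02e-07) and 1.86 for RBM33 (adjusted p = 7.38e-05) in the authors' deposited tables. Its small relative BOD1, a partner of the SETD1B complex, had -1.45 for ALKBH5 and -1.61 for RBM33, per the authors' deposited tables. PSIP1, which tethers menin and KMT2A to chromatin, had -1.56 for ALKBH5 and -1.65 for RBM33, per the authors' deposited tables. The 5 partners of at least 8650 bases had 4 positive and 0 negative calls in each of the authors' deposited tables. Of all protein-coding genes of that length, 52.6% (ALKBH5) and 46.7% (RBM33) were called positive. The 11 shorter partners had 0 positive and 7 negative calls in each of the authors' deposited tables. All protein-coding genes under 8650 bases had a median of -0.24 for ALKBH5 and -0.30 for RBM33, and their share of calls was not computed. The 2 methyltransferases below that cutoff, SETD1A at 6372 bases and SETD1B at 8557, close to the cutoff, were positive in both. The part of length in these calls was not tested.

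**Figure D3:**
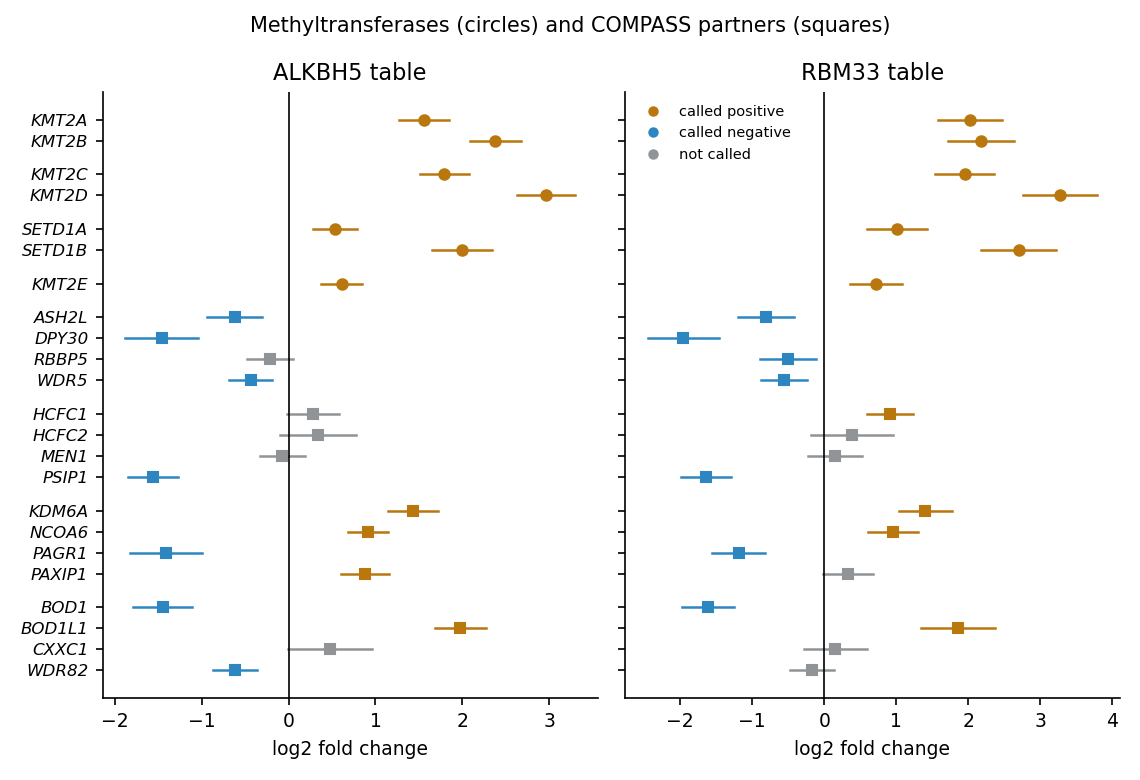
Log2 fold change (x axis) of the methyltransferase mRNAs (circles, top) and of COMPASS partner mRNAs (squares, grouped as shared subunits and as partners of each pair) in the authors' deposited tables for ALKBH5 (left) and RBM33 (right). Bars are the implied 95% intervals, and colours give the authors' call at an adjusted p under 0.05. All 7 circles lie right of 0, and no shared subunit was called positive.

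Other histone lysine methyltransferases, which act on other residues or on lysine 4 in a more limited way, had calls of both signs. The authors' deposited ALKBH5 table had 9 of 21 such mRNAs positive and 6 negative (median 0.08), against 30.5% and 29.1% of all genes. In the authors' deposited RBM33 table, 8 were positive and 5 negative (median 0.17), against 24.0% and 27.0% of all genes. The negative shares of this list were thus near those of all genes. Highest by the mean of both tables were EZH1, a catalytic subunit of Polycomb repressive complex 2, ASH1L, a lysine 36 methyltransferase, and NSD1, which dimethylates lysine 36. EZH1 had 2.48 for ALKBH5 (adjusted p = 2.09e-07) and 1.93 for RBM33 (adjusted p = 2.53e-05), ASH1L 1.64 and 1.44, and NSD1 1.14 and 1.39, in the authors' deposited tables for ALKBH5 and RBM33. Lowest were KMT5A, which monomethylates histone H4 at lysine 20, SMYD2, which also methylates nonhistone proteins, and EZH2, the proliferation-linked paralog of EZH1. KMT5A had -1.10 and -1.07, SMYD2 -0.76 and -0.72, and EZH2 -0.82 and -0.64, in the authors' deposited tables for ALKBH5 and RBM33. No member of this list was called with opposite signs in the tables, and the share of all genes so called was not computed. The 8 members of at least 8650 bases had 5 positive and 1 negative calls in each of the authors' deposited tables, where 52.6% (ALKBH5) and 46.7% (RBM33) of genes of that length were positive. The 13 shorter members had 4 positive and 5 negative calls for ALKBH5 and 3 and 4 for RBM33, from the authors' deposited tables. The share of calls among all genes under that length was not computed.

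Protein-coding genes with values most like the family were found by the distance between points whose coordinates are the log2 fold changes of both tables, thus over 2 comparisons only. The 5 nearest to KMT2D were TTC34, TNXB, TMEM74B, LAMA5 and AHNAK2, at distances from 0.04 to 0.16 log2 units. LAMA5, a laminin chain, had 3.11 for ALKBH5 and 3.29 for RBM33, and AHNAK2, a giant scaffold-like protein, had 3.04 and 3.14, in the authors' deposited tables for ALKBH5 and RBM33. The 5 nearest to the point of the family's medians were CDAN1, TTC21A, WNT3, ZNF169 and ANKAR. CDAN1, the gene of a congenital dyserythropoietic anaemia, had 1.79 for ALKBH5 and 2.02 for RBM33, per the authors' deposited tables.

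Several of the 7 genes overlap other listed genes, so reads may be shared where strand or feature assignment was not strict, and the strand setting of the counting is not given in the sources used here. AP001267.5, a protein-coding entry on the same strand, overlaps KMT2A over 46248 bases, and it had 0.20 for ALKBH5 (adjusted p = 0.152) and -0.06 for RBM33 (adjusted p = 0.761) in the authors' deposited tables. Its average log2 CPM was below that of KMT2A by 1.66 in the authors' deposited ALKBH5 table and by 1.56 in the RBM33 one. KMT2E overlaps SRPK2, a kinase of splicing factors, tail to tail over 4316 bases, and SRPK2 had -0.25 for ALKBH5 (adjusted p = 0.0915) and -0.19 for RBM33 (adjusted p = 0.314) in the authors' deposited tables. IGFLR1 overlaps the end of KMT2B by 78 bases. By the listed spans, KMT2C, KMT2D, SETD1A and SETD1B overlap no other listed gene. Within KMT2E, the antisense lncRNA AC005070.3 had 2.98 for ALKBH5 (adjusted p = 0.00264) and 1.24 for RBM33 (adjusted p = 0.25) in the authors' deposited tables. The antisense lncRNA AP001267.3 overlaps KMT2A over 16560 bases. It was not called, at -1.19 for ALKBH5 (adjusted p = 0.172) and -0.04 for RBM33 (adjusted p = 0.969) in the authors' deposited tables. Both lncRNAs were of low abundance, at an average log2 CPM of 0.91 (AC005070.3) and 0.41 (AP001267.3) in the authors' deposited ALKBH5 table.

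By the listed starts, noncoding RNAs start head to head with KMT2E and SETD1B, and both were called positive in each table. Over all genes, 30.5% (ALKBH5) and 24.0% (RBM33) were called positive, and the share among noncoding genes was not computed. LINC01089 and RHOF were added after their values were seen, so these calls are description only. KMT2E-AS1 starts 131 bases inside KMT2E on the other strand and shares 132 bases with it. It had 2.40 for ALKBH5 (SE 0.60, interval 1.11 to 3.68, adjusted p = 0.00342) and 3.48 for RBM33 (SE 1.03, interval 1.23 to 5.74, adjusted p = 0.0146) in the authors' deposited tables. The interval of KMT2E-AS1 stood above that of KMT2E itself in both tables, although its abundance was lower by 5.65 (ALKBH5) and 6.62 (RBM33) in average log2 CPM from the authors' deposited tables. LINC01089 starts 103 bases before the listed start of SETD1B on the other strand. It had 2.73 for ALKBH5 (SE 0.35, adjusted p = 1.60e-05) and 3.07 for RBM33 (SE 0.49, adjusted p = 0.000322) in the authors' deposited tables. Its average log2 CPM there was 2.46 (ALKBH5) and 1.97 (RBM33), below the median over all genes of 4.05 in each. The intervals of LINC01089 overlapped those of SETD1B in both. RHOF is the protein-coding gene that starts 606 bases from the listed start of SETD1B on that other strand. It was not called, at 0.12 for ALKBH5 (adjusted p = 0.748) and 0.51 for RBM33 (adjusted p = 0.297) in the authors' deposited tables. What part reads of 1 strand have in values of the other was not tested.

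The 150 bases before the RefSeq start of KMT2E are shown because they lie wholly inside the span listed for KMT2E-AS1, so that they precede 1 gene and belong to the other (RefSeq, GRCh38.p14, chr7:105014055-105014204, plus strand, 5′ to 3′). Capitals mark the last 15 bases, which the deposited tables list as part of both genes.
KMT2E: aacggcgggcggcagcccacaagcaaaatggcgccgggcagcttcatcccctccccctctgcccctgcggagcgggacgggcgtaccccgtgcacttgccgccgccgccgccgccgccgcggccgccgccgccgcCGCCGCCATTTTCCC
This stretch holds 24 CG dinucleotides (the motif CG, the same on both strands), and 4.50% of the 35116 RefSeq promoters hold at least as many in the same 150 bases, where the median is 7. The count is a description of the sequence, and no factor was assigned to it.

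**Figure D4:**
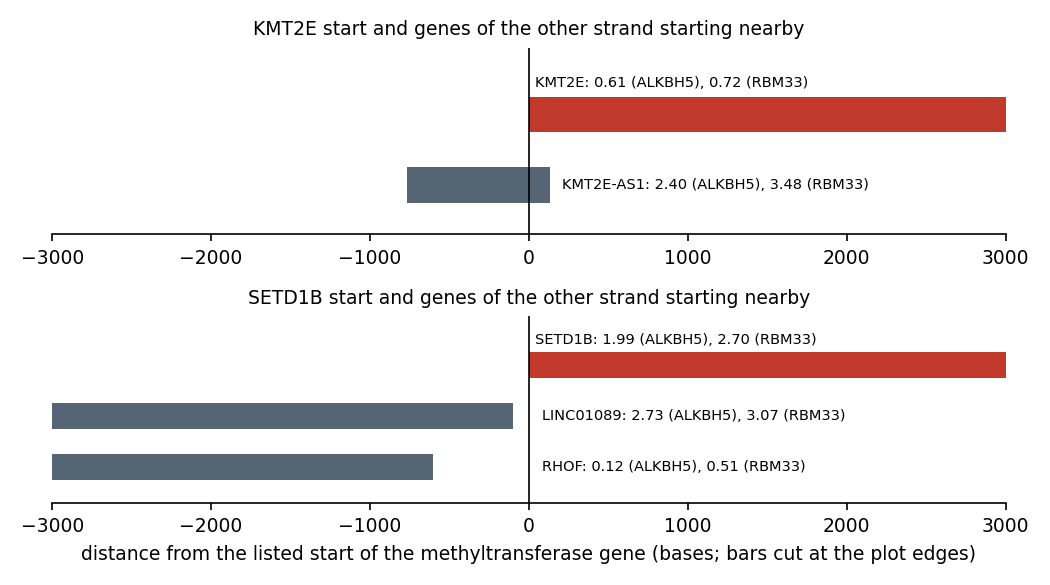
Spans of KMT2E (top) and SETD1B (bottom) in red and of the genes that start nearby on the other strand in grey, by distance in bases from the listed start of the methyltransferase gene. Labels give both deposited log2 fold changes (the authors' deposited tables), and KMT2E-AS1 and LINC01089 have the higher values of each pair, with overlapping intervals for SETD1B and LINC01089.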

How the data were processed

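Per the labels' protocols, RNA from StrepTactin-XT pull-down and from input was made into stranded total RNA libraries with a Takara Pico input kit and sequenced on an Illumina NovaSeq. The submitters' processing notes name edgeR 3.24.3, featureCounts with Subread 1.6.4, HISAT2 2.1.0, cutadapt 1.18 and build hg38; annotation, strand setting, filter, normalization and contrast were not given in these sources. Per the file headers, the deposited log2 fold change and average log2 CPM are the authors' values per gene, the F statistic is a score of the authors' fit, and the p-value and adjusted p-value are the authors' too. Values of overlapping genes depend on the strand setting, and rows of low abundance carry wide intervals.

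From these, approximate SEs and 95% intervals were computed with Python 3.11.15, numpy 2.4.6, pandas 2.3.3 and scipy 1.17.1, with about 13.2 (ALKBH5) and 11.2 (RBM33) degrees of freedom; this treats F as a squared t statistic, and the step was tested on simulated data. No test was added to that of the authors. Calls used an adjusted p under 0.05; alternatives were 0.01, at least 1 log2 unit, and adjustment over protein-coding or more abundant genes. Groups came from sample titles. The members and lists were chosen with earlier results of these data known. Genes named were all members, the shared COMPASS subunits and partners called in both tables, the 3 highest and 3 lowest other methyltransferases, the 5 nearest genes, and neighbours. RHOF and LINC01089, which overlap no member by the listed spans, were added after their values were seen. Protein and transcript sequences were not used here, and RefSeq promoters matched 6 of the 7.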

Additional observations from a re-analysis of the deposited data

How the results depend on the processing

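All 7 mRNAs stayed positive at a threshold of 0.01 and with p-values adjusted over protein-coding genes or over genes of at least median abundance, and a minimum of 1 log2 unit left 5 for ALKBH5 and 6 for RBM33. That minimum lowered the COMPASS partner counts to 2 positive and 4 negative in each table, and the negative other methyltransferases to 1 in each, of 6 for ALKBH5 and 5 for RBM33, since it asks for more than the adjusted p. At 0.01 the negative other methyltransferases for RBM33 were 2. Relative to the long protein-coding genes the members' median was 1.25 for ALKBH5 and 1.48 for RBM33. Their median percentile among protein-coding genes was 93.7 for ALKBH5 and 96.7 for RBM33; among long ones it was 88.8 and 94.3, and among those of at least median abundance 96.1 and 98.4. The other 39 recomputed values kept their sign and lay within 1.5 times of the count reported or within the members' median SE. No paired analysis was possible because only the authors' comparisons were used, without library values, and for the same reason no replicate could be left out.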

Other observations

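The start of SETD1B differs between annotations. The deposited tables list it from 121804009, whereas RefSeq starts it at 121790155 on chromosome 12, which is 13854 bases further upstream, with the same end at 121832656. The span of LINC01089 on the other strand lies inside that RefSeq span but outside the listed one. RHOF, listed from 121777754 to 121803403 on that other strand, also reaches into the RefSeq span. The head to head arrangement at SETD1B thus holds for its listed start only.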
